A study of Mus musculus with 8 samples.

Results

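A set of 8 genes of potassium and calcium flux was followed in mouse CD4+ T cells exposed to dimethyl succinate: the potassium channels Kcna3 and Kcnn4, the calcium release-activated channel genes Orai1, Orai2 and Orai3, the calcium sensors Stim1 and Stim2, and the cation channel Trpm4. They were chosen by symbol with the results of these libraries already known, so their differences between the groups are given as a description and not as a test. All 8 were found among the 54532 genes listed, and all 8 passed the low-count filter. The treated group was spleen CD4+ T cells of wild-type genotype given dimethyl succinate, a cell-permeable ester of the tricarboxylic acid cycle intermediate succinate, for 3 days. Its control was the same cell type and genotype given vehicle, which the header of the count table calls DMSO. Each group held 4 libraries of bulk messenger RNA. The sources used here do not give the ester's dose, the strain and age of the mice, any stimulation of the cells or the method of purification. Kcna3 and Orai1 lay 1.33-fold and 1.26-fold higher under dimethyl succinate, with every treated library above every vehicle library. Groups did not overlap in this direction for 3 of the 8 genes, Orai2 being the third, and for 2.5% of all tested genes. Stim1, Stim2, Orai3, Kcnn4 and Trpm4 overlapped between the groups. By the quasi-likelihood test of edgeR on all 8 libraries, 0 of the 8 had an adjusted p below 0.05, and 0% of all genes did. DESeq2 and limma likewise called 0 genes, while 805 had an unadjusted p below 0.05 in edgeR.

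When the T cell receptor is engaged, inositol trisphosphate empties the calcium store of the endoplasmic reticulum. STIM proteins in its membrane sense the loss and open ORAI pores in the plasma membrane, and the calcium that enters activates calcineurin and NFAT transcription factors. Potassium leaving through Kv1.3 (Kcna3, opened by voltage) and KCa3.1 (Kcnn4, opened by calcium bound to calmodulin) keeps the membrane potential negative and so sustains the inward pull on calcium. TRPM4, a calcium-activated channel for monovalent cations, lets sodium in and depolarises the cell.

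Transcripts of the labelled cell type were abundant: 7 markers of CD4+ T cells summed to 2337 to 2412 CPM (counts scaled to library size) under dimethyl succinate and 1840 to 2377 CPM under vehicle. Cd8a and Cd8b1, markers of cytotoxic T cells, summed to 5.85 to 7.54 CPM under dimethyl succinate and 5.50 to 5.98 CPM under vehicle. The 7 B cell markers summed to 4.59 to 5.94 CPM under dimethyl succinate and 4.73 to 5.16 CPM under vehicle. Over 7 monocyte and macrophage markers the sums were 5.56 to 10.1 CPM with the ester and 3.76 to 7.18 CPM with vehicle. Mast cell and basophil markers, of interest because mast cells also use TRPM4 and KCa3.1, summed over 5 genes to 17.3 to 21.9 CPM under dimethyl succinate and 15.3 to 20.5 CPM under vehicle. The 6 natural killer markers reached 8.88 to 13.3 CPM with the ester and 10.9 to 14.7 CPM with vehicle. Most of this was Eomes, at means of 9.96 CPM with the ester and 10.1 CPM with vehicle. The other natural killer means were at most 0.871 CPM. The 5 stromal and endothelial markers, with Cdh5 at 0, reached 33.7 to 38.7 CPM with the ester and 28.1 to 39.5 CPM with vehicle. Here most was Pecam1, at means of 36.0 CPM with the ester and 34.3 CPM with vehicle, and the other means were at most 0.419 CPM. Dendritic cell (Siglech at 0) and neutrophil markers (S100a9 at 0) reached 5.09 CPM at most. The library of vehicle replicate 4 stood apart from the other 7. Its mean correlation with the rest was 0.969 against 0.988 to 0.991, its mitochondrially encoded share was 0.252% of counts against 1.16% to 1.48%, and it held both the lowest sum of CD4+ T cell markers and the highest of erythroid and platelet ones, 51.0 CPM against 23.8 to 30.5 under dimethyl succinate and 26.5 to 31.1 in the other vehicle libraries. Differences of the 8 genes are therefore given with and without it, and those of other genes where it moved them by over 1.5 times. Its part in any difference beyond that was not tested. Libraries held between 13407295 and 16688854 counts.

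The genes lie on 3 chromosomes of the build GRCm38. Kcna3 (ENSMUSG00000047959) is a gene of 1 transcript on the plus strand of chromosome 3 from 107036169 to 107038070, where its exon covers the whole span of 1902 bases. Kcnn4 (ENSMUSG00000054342) lies on chromosome 7 from 24370263 to 24386690, Orai1 (ENSMUSG00000049686) on chromosome 5 from 123015074 to 123030456 and Orai2 (ENSMUSG00000039747) on chromosome 5 from 136147459 to 136170713. Orai3 (ENSMUSG00000043964) is on chromosome 7 from 127769815 to 127775150, Stim1 (ENSMUSG00000030987) on chromosome 7 from 102267806 to 102437319, Stim2 (ENSMUSG00000039156) on chromosome 5 from 53998499 to 54121057 and Trpm4 (ENSMUSG00000038260) on chromosome 7 from 45302632 to 45333780. Orai2 and Trpm4 are on the minus strand and the others on the plus strand. Exons of another annotated gene covered at most 0.305% of a member's exon bases. That was the antisense gene Gm2479 over 7 bases of Orai1, with 3 counts in all 8 libraries together. Gm27008, an antisense gene that spans Kcna3 without sharing exon bases, had 0 to 9 counts per library.

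The promoters of the 2 genes that stood farthest above vehicle, Kcna3 and Orai1, are shown with that of Kcnn4, an abundant channel whose groups overlapped. Each sequence is RefSeq's for the build GRCm38.p6, runs 5′ to 3′ from 250 bases before the annotated start to 50 bases past it, and lies on the plus strand. Capitals mark matches on either strand to the GC box GGGCGG, the NFAT core GGAAA, the AP-1 site TGANTCA or the E box CACGTG.
Kcna3, chr3:107035912-107036211: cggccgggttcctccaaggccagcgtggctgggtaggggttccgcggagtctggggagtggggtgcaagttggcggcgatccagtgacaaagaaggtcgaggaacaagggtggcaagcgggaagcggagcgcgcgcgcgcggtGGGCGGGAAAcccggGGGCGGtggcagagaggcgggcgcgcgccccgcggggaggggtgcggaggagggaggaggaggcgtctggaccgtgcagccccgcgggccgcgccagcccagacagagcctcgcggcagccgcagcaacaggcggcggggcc
Orai1, chr5:123014824-123015123: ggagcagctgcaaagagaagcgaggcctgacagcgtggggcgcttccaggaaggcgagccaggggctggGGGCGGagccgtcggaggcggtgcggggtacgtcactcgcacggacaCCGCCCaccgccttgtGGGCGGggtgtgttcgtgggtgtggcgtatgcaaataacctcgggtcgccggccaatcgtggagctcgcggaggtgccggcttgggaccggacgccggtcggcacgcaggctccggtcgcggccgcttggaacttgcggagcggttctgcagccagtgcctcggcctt
Kcnn4, chr7:24370013-24370312: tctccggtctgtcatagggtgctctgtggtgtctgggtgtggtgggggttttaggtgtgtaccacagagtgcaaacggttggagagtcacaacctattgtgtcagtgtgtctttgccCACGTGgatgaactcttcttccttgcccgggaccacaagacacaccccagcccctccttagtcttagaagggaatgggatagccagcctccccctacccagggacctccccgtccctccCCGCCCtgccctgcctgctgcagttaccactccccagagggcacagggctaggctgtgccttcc
Kcna3 held 2 GC boxes and 1 NFAT core, which overlaps one of the GC boxes, and Orai1 held 3 GC boxes. Kcnn4 held 1 GC box and 1 E box. Promoters of 7 of the 8 genes were matched. Kcna3 and Orai1 held 37 and 36 CpG dinucleotides in 300 bases, but so did others whose groups overlapped, with 38 in Stim1 and 39 in Stim2. Orai2 held 24, Orai3 11 and Kcnn4 6, and the median over 32851 promoters was 7. All 7 held a GC box, from 1 each in Kcnn4 and Orai3 to 8 in Stim1, as did 35.7% of all promoters. An NFAT core was found in Kcna3, Orai2 and Orai3 and in 61.3% of all promoters, and an E box in Kcnn4 and Orai2 and in 7.15% of all. None of the 7 held the AP-1 letters in this window, which 7.81% of all promoters did. A match is a description of letters and not a shown binding site.

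Levels between genes were compared per length, on the authors' FPKM, which divides fragments by the listed gene length and by the library's total. Orai1 and Kcnn4 were the most abundant, at means of 48.6 and 44.8 FPKM over the 8 libraries, above 92.5% and 91.8% of the 13981 tested genes. Kcna3 followed at 16.1 FPKM, Orai2 at 12.2, Stim2 at 10.5, Stim1 at 7.78 and Orai3 at 7.14 FPKM. Trpm4 was lowest at 1.14 FPKM, above 20.8% of tested genes. Neighbours whose ranges over the 8 libraries did not overlap were Kcnn4 and Kcna3, with a ratio of means of 2.78, Stim2 and Stim1, with 1.35, and Orai3 and Trpm4, with 6.26. The other 4 neighbouring pairs overlapped. Even so Kcna3 exceeded Orai2, and Stim1 exceeded Orai3, within each of the 8 libraries. Orai1 exceeded Kcnn4 in 7 of 8 libraries, the exception being vehicle replicate 4 at 36.8 and 47.3 FPKM. All of these levels depend on the listed gene length, which equals the bases of all annotated exons. Stim1 had more counts than Stim2, at 76.2 to 84.3 CPM against 50.04 to 58.1 CPM. Stim1 came out lower per length because it is listed with 10371 bases and Stim2 with 5133. Gene counts do not show which transcripts the cells used, so the order of Stim1 and Stim2 rests on those lengths. The level of Kcna3 rests on the listed 1902 bases alone. AI504432, a long noncoding RNA gene looked at after its values were seen, starts 1434 bases past the end of Kcna3 on the same strand and had 604 to 1149 counts per library against 355 to 626 for Kcna3.

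**Figure D1:**
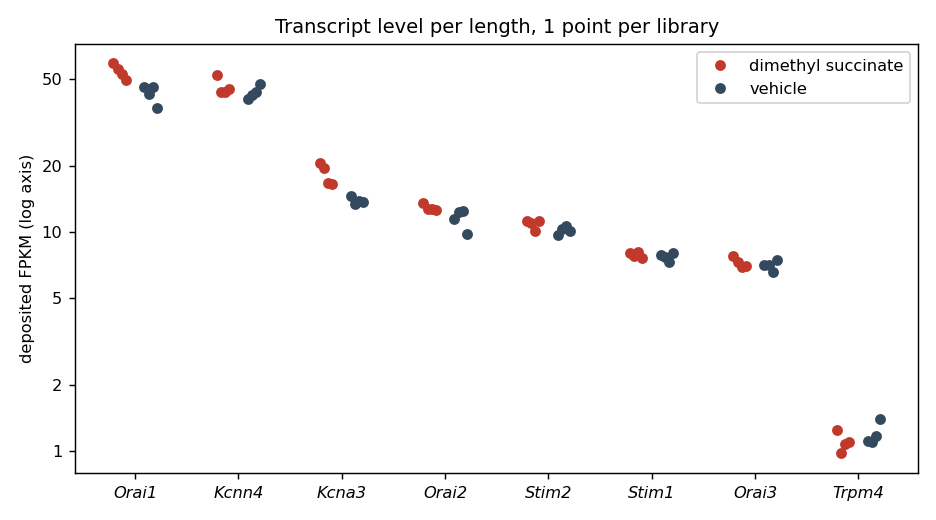
Deposited FPKM of the 8 genes on a log axis, in order of their mean over the 8 libraries, with 1 point per library. Red points are dimethyl succinate and dark points vehicle. Orai1 and Kcnn4 lie between 36.8 and 59.0 FPKM, and Trpm4 lies below 1.39 FPKM in every library.

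Kcna3, which encodes the voltage-gated potassium channel Kv1.3, was higher under dimethyl succinate. It had 39.5, 37.4, 31.9 and 31.6 CPM in the 4 dimethyl succinate libraries and 27.8, 25.6, 26.5 and 25.9 CPM in the 4 vehicle libraries. Every dimethyl succinate library lay above every vehicle library, and replicates 1 and 2 of the ester lay highest. The means were 35.1 ± 3.93 CPM under dimethyl succinate and 26.5 ± 0.974 CPM under vehicle (SD, n = 4 each). Counts behind them were 495 to 626 per dimethyl succinate library and 355 to 402 per vehicle library. This is a log2 fold change of 0.41 ± 0.091 (SE; 95% interval 0.21 to 0.60), a 1.33-fold difference. It came to 0.40 ± 0.087 without vehicle replicate 4, a library that was not extreme for this gene. Without dimethyl succinate replicate 1, the highest library, it was 0.35, with an adjusted p of 0.911 in edgeR's test. In bulk RNA a difference in the share of cells that express a gene and one in the RNA per cell cannot be told apart. AI504432, downstream of Kcna3, stood at 61.9 ± 7.46 CPM under dimethyl succinate and 53.3 ± 7.77 CPM under vehicle (SD, n = 4 each), and its log2 fold change of 0.22 ± 0.114 was 0.12 without vehicle replicate 4.

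Kcnn4, which encodes the calcium-activated potassium channel KCa3.1, overlapped between the groups. It had 269, 225, 224 and 234 CPM under dimethyl succinate and 209, 217, 223 and 242 CPM under vehicle. Dimethyl succinate replicate 1 was the highest of all 8 libraries and vehicle replicate 4 the second highest. The means were 238 ± 21.3 CPM with the ester and 223 ± 14.0 CPM with vehicle (SD, n = 4 each), and the log2 fold change came to 0.094 ± 0.073 (SE; interval -0.065 to 0.25). It was 0.14 ± 0.057 without vehicle replicate 4, where the nearest libraries were nearly level at 223.9 CPM under dimethyl succinate and 223.3 CPM under vehicle, and 0.032 without dimethyl succinate replicate 1. Set against Kcnn4 per length, Kcna3 made up 28.4% ± 1.77 of the summed FPKM of both channels under dimethyl succinate and 24.2% ± 1.62 under vehicle (SD, n = 4 each). This share does not depend on how libraries were scaled, and its lowest value under dimethyl succinate, 26.7%, lay above its highest under vehicle, 26.3%.

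**Figure D2:**
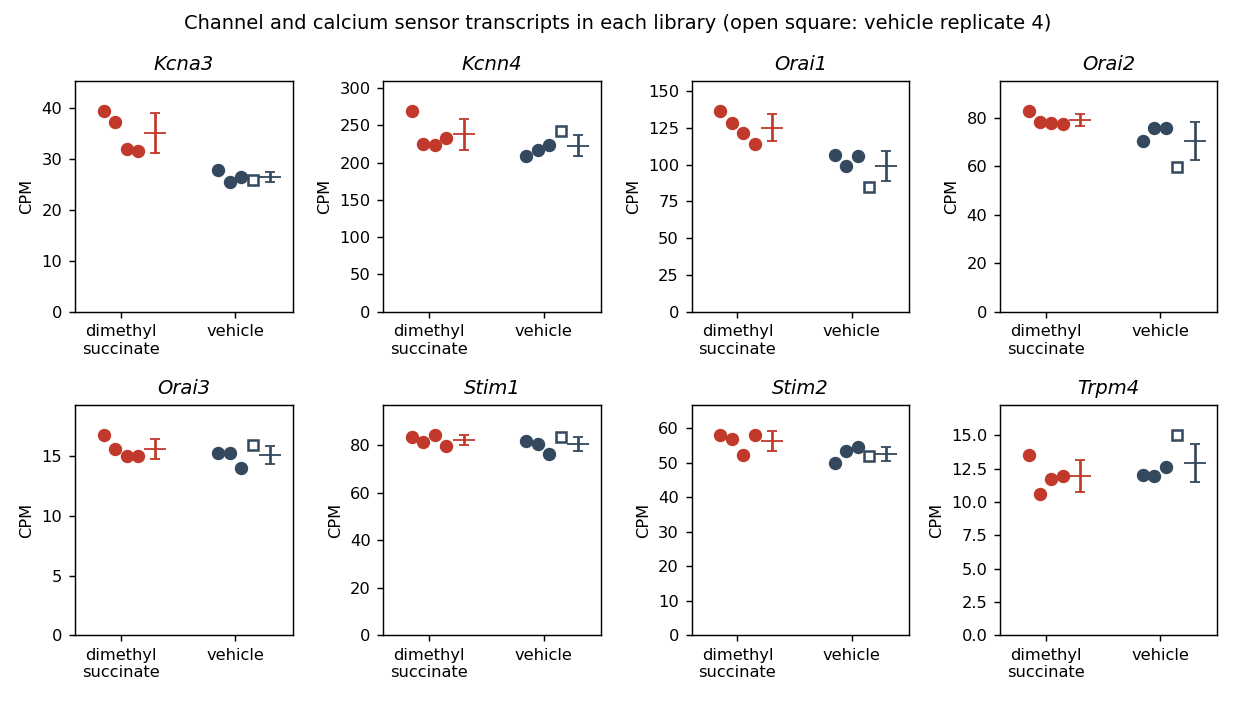
CPM of each of the 8 genes by library on axes that start at 0, with dimethyl succinate in red and vehicle in dark blue. Bars at the side give the mean and SD of 4 libraries, and the open square is vehicle replicate 4. The groups separate for Kcna3, Orai1 and Orai2, and they overlap for the other 5 genes.

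Orai1 encodes the pore of the calcium release-activated channel, and it too was higher under dimethyl succinate. It had 136, 128, 122 and 114 CPM in the dimethyl succinate libraries and 107, 99.2, 106 and 84.5 CPM in the vehicle libraries. The groups did not overlap, and vehicle replicate 4 was the lowest library. The means were 125 ± 9.38 CPM with the ester and 99.1 ± 10.3 CPM with vehicle (SD, n = 4 each), with 1790 to 2148 counts per dimethyl succinate library and 1215 to 1559 per vehicle library. The resulting log2 fold change is 0.34 ± 0.083 (SE; 95% interval 0.16 to 0.52), a 1.26-fold difference. Without vehicle replicate 4 it was smaller and tighter, at 0.27 ± 0.058 with an interval of 0.15 to 0.39. Leaving out dimethyl succinate replicate 1, the highest library, gave 0.30, with an adjusted p of 0.911 in edgeR's test.

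Orai2, whose product forms mixed channels with ORAI1 in mouse T cells and lowers their current, had 82.7, 78.2, 77.8 and 77.5 CPM under dimethyl succinate and 70.4, 75.8, 75.7 and 59.5 CPM under vehicle. The groups did not overlap, but the gap between the nearest libraries was small, 77.5 CPM under dimethyl succinate against 75.8 CPM under vehicle. Its log2 fold change came to 0.17 ± 0.080 (SE; interval -0.005 to 0.34), and to 0.096 ± 0.057 without vehicle replicate 4, the library with the least Orai2. Orai3, the third pore subunit, had 16.8, 15.6, 14.99 and 15.02 CPM under dimethyl succinate and 15.2, 15.3, 14.1 and 15.9 CPM under vehicle. These values overlapped almost fully. The log2 fold change of 0.044 ± 0.093 (SE) has an interval of -0.16 to 0.24, which reaches 1.18-fold at its upper end, and it was 0.069 ± 0.099 without vehicle replicate 4.

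The makeup of Orai transcripts leaned towards Orai1 under dimethyl succinate. Orai1 made up 73.5%, 73.5%, 72.8% and 71.6% of the summed Orai1, Orai2 and Orai3 FPKM in the dimethyl succinate libraries, against 71.3%, 68.8%, 70.8% and 68.1% in the vehicle libraries. The groups did not overlap, with means of 72.8% ± 0.885 under dimethyl succinate and 69.8% ± 1.53 under vehicle (SD, n = 4 each), or 70.3% under vehicle without replicate 4. Orai2 made up 17.4% ± 0.693 under dimethyl succinate and 18.7% ± 0.947 under vehicle. Orai3 made up 9.75% ± 0.224 with the ester and 11.5% ± 1.58 with vehicle, and for both genes the groups overlapped. Summed over the family, Orai transcripts stood at 74.3 ± 4.79 FPKM under dimethyl succinate and 61.6 ± 5.12 FPKM under vehicle. The lowest dimethyl succinate library, at 69.0 FPKM, lay above the highest vehicle library, at 65.0 FPKM. Orai1 was most of this sum, so the sum and the share restate in large part the difference of Orai1 itself.

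The log2 fold changes of both sensor genes were under 0.1. Stim1, which encodes the main sensor of store depletion, had 83.4, 81.1, 84.3 and 79.5 CPM under dimethyl succinate and 81.5, 80.2, 76.2 and 83.5 CPM under vehicle. The ranges lay on top of each other, and the log2 fold change of 0.030 ± 0.059 (SE) has an interval of -0.098 to 0.16, which reaches 1.12-fold at its upper end. It was 0.049 ± 0.055 without vehicle replicate 4. Stim2, whose product responds to smaller losses of stored calcium, had 58.1, 57.0, 52.1 and 57.9 CPM under dimethyl succinate and 50.04, 53.5, 54.7 and 52.0 CPM under vehicle. In 3 of the 4 dimethyl succinate libraries it lay above every vehicle library, and replicate 3 lay among them. Its log2 fold change was 0.098 ± 0.068 (SE), or 0.094 ± 0.065 without vehicle replicate 4. Stim1 made up 41.9% ± 1.73 of the summed Stim FPKM under dimethyl succinate and 43.1% ± 1.74 under vehicle. The size of this share, and of the ratio that follows, rests on the listed gene lengths. The ratio of summed Orai to summed Stim FPKM was 3.97 ± 0.212 under dimethyl succinate and 3.44 ± 0.327 under vehicle (SD, n = 4 each), and the groups overlapped, with 3.67 as the lowest under dimethyl succinate and 3.70 as the highest under vehicle.

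Trpm4 was the only one of the 8 with a log2 fold change under 0. It had 13.5, 10.6, 11.7 and 11.9 CPM in the dimethyl succinate libraries and 11.998, 11.97, 12.6 and 15.03 CPM in the vehicle libraries. The highest library was vehicle replicate 4, and the log2 fold change of -0.11 ± 0.117 (SE) was -0.034 ± 0.114 without it. With 169 to 216 counts per library it was the least deeply counted of the 8, and its interval of -0.37 to 0.14 is the widest.

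**Figure D3:**
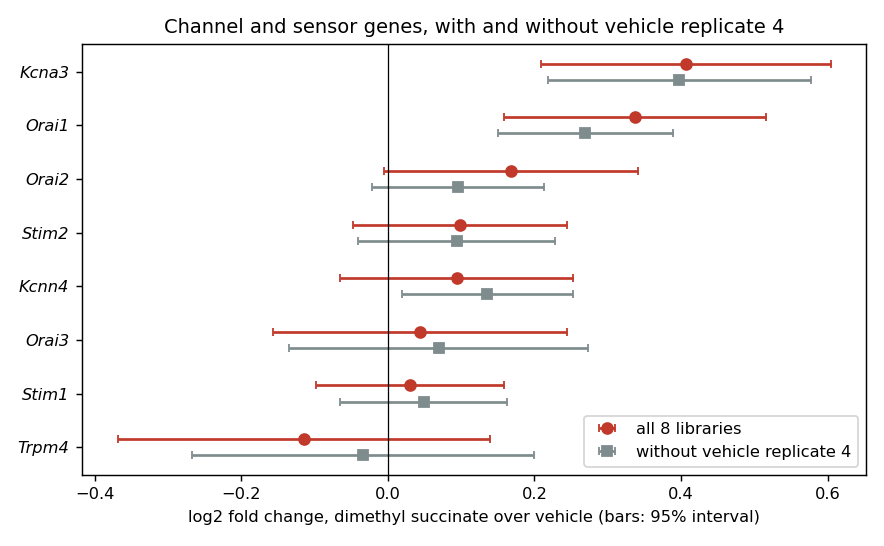
Log2 fold change of dimethyl succinate over vehicle for each gene, with 95% intervals from edgeR, from all 8 libraries (red circles) and without vehicle replicate 4 (grey squares). The intervals of Kcna3 and Orai1 lie above 0 in both, that of Kcnn4 only without the library, and those of the other 5 genes include 0 in both.

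Read across libraries, dimethyl succinate replicate 1 held the highest value of 6 of the 8 genes, all but Stim1 and Trpm4. Vehicle replicate 4 held the lowest value of Orai1 and Orai2 and the highest of Trpm4. On the log2 scale it lay 0.39 under the mean of the 8 libraries for Orai1 (a deviation of -0.39) and 0.28 above it for Trpm4. For Kcna3 its deviation of -0.23 was between those of vehicle replicates 2 (-0.25) and 3 (-0.20).

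**Figure D4:**
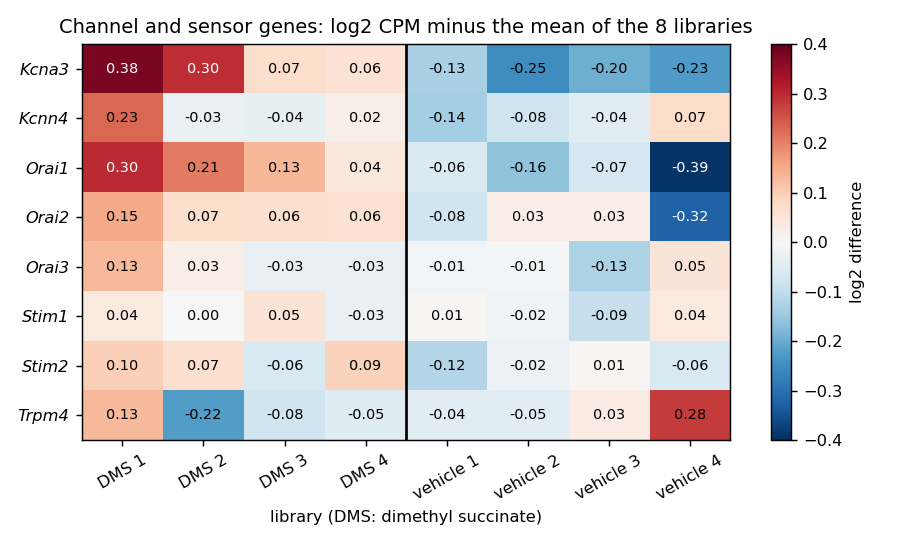
Log2 CPM of each gene in each library minus that gene's mean over the 8 libraries, with dimethyl succinate (DMS) left of the line and vehicle right of it. Kcna3 and Orai1 are above 0 in all 4 dimethyl succinate libraries and below 0 in all 4 vehicle libraries, and vehicle replicate 4 is low for Orai1 and Orai2 and high for Trpm4.

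Read against all 13981 tested genes, Kcna3 was at rank 9 and Orai1 at rank 26 when genes were ordered by p in edgeR, each with an adjusted p of 0.646. At an unadjusted p below 0.05 there were 2 of 8 genes, Kcna3 and Orai1, and 5.76% of all genes. Both were higher, as were 2.93% of all genes, and 0 of 8 were lower, against 2.83%. Groups did not overlap with dimethyl succinate lower for 0 of 8 and for 2.32% of all. The log2 fold change was above 0 for 7 of 8 genes and for 49.6% of all, and its median was 0.096 over the 8 genes and -0.001 over all.

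Without vehicle replicate 4, Orai1 was the 1 gene of 8 to pass an adjusted p of 0.05, at 0.0461 in edgeR's test, and 0.197% of 14232 genes passed. Kcna3 came next at an adjusted p of 0.0533. At an unadjusted p below 0.05 stood Kcna3, Kcnn4 and Orai1, 3 of 8 genes, and 8.54% of all. Non-overlap with dimethyl succinate higher was found for 4 of 8, Kcnn4 being the fourth, and 4.93% of all. With dimethyl succinate lower it was found for 0 of 8 and 4.68%. Kcnn4 was separate on CPM only, since its nearest libraries on FPKM were 43.45 under dimethyl succinate and 43.47 under vehicle. Since the 8 were picked with this comparison known, nothing about them as a group is read from these counts. In the authors' deposited table, Kcna3 had a log2 fold change of 0.40 and an adjusted p of 0.0970. The authors' deposited table gave Orai1 0.33 and 0.125, and an adjusted p from 0.833 to 0.958 for the other 6.

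Other genes of the pathway were read from 3 lists drawn up by function. In edgeR's test over all genes, none of their genes reached an adjusted p of 0.05, either on 8 libraries or without vehicle replicate 4. Of 33 symbols for store-operated entry and calcium stores, 26 were tested. Of those, 13 lay above 0 and the median log2 fold change was -0.001. At an unadjusted p below 0.05, where 5.76% of all genes stood, 1 was higher and 0 were lower. Of 28 calcineurin and NFAT genes, 25 were tested, 9 lay above 0 with a median of -0.021, and 1 was higher and 0 lower at that p. Of 38 other channels and pumps, 22 were tested, 15 lay above 0 with a median of 0.048, and 0 were higher and 2 lower. The 2 were Atp1b3 and Atp1b1, another sodium pump subunit, named here after its values were seen. Atp1b1 stood at 21.2 ± 1.48 CPM under dimethyl succinate and 26.0 ± 1.82 CPM under vehicle (SD, n = 4 each), with no overlap. Its log2 fold change was -0.29 ± 0.089 (SE), with an adjusted p of 0.802 in edgeR. Most potassium channel genes of this list, among them Kcna1, Kcna2, Kcna6 and Kcnk3, were too low to be tested on 8 libraries. Kcna2 was tested without vehicle replicate 4, where this list had 23 tested genes. Without vehicle replicate 4 the 3 medians were 0.038, -0.024 and 0.026, and the balance at an unadjusted p below 0.05, reached by 8.54% of all genes, was different. The first list again had 1 higher and 0 lower. The calcineurin and NFAT list had 1 higher and 2 lower, namely Calm2, a calmodulin gene, and Camk4, a calmodulin-dependent kinase gene. The other channels and pumps had 2 higher, the cation channel genes Trpv2 and Piezo1, and 1 lower, Atp1b1. Calm2, Camk4, Trpv2 and Piezo1 are named after their values were seen.

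Upstream of store release, Plcg1, the phospholipase that makes inositol trisphosphate, stood at 193 ± 5.88 CPM under dimethyl succinate and 199.8 ± 3.56 CPM under vehicle (SD, n = 4 each), a log2 fold change of -0.054 ± 0.054 (SE). The inositol trisphosphate receptor genes Itpr1, Itpr2 and Itpr3 were at 0.047 ± 0.059, 0.032 ± 0.081 and 0.099 ± 0.081. Each of these 4 differences is within 1.5 standard errors of 0, and without vehicle replicate 4 Itpr2 and Itpr3 were at 0.060 and 0.054. Saraf, which encodes an inhibitor of STIM, had -0.11 ± 0.096, or 0.0016 without vehicle replicate 4, and Cracr2a, a stabiliser of the STIM and ORAI complex, 0.016 ± 0.153, or -0.11 without that library. The calcium pumps of the endoplasmic reticulum, Atp2a2 and Atp2a3, had -0.028 ± 0.079 and -0.028 ± 0.060, and those of the plasma membrane, Atp2b1 and Atp2b4, -0.13 ± 0.081 and 0.066 ± 0.084. Without vehicle replicate 4, Atp2a2 was at 0.061, Atp2b1 at -0.053 and Atp2b4 at -0.018, so the direction turned for Atp2a2 and Atp2b4. Mcu, the pore of the mitochondrial calcium uniporter, was the gene of this list at an unadjusted p below 0.05. It stood at 38.6 ± 1.21 CPM under dimethyl succinate and 33.6 ± 1.52 CPM under vehicle (SD, n = 4 each) with no overlap, and a log2 fold change of 0.20 ± 0.072 (SE). It was 0.20 also without vehicle replicate 4, and in edgeR's test its adjusted p was 0.802, or 0.388 without that library.

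Downstream, the calcineurin subunit genes Ppp3ca, Ppp3cb and Ppp3r1 had log2 fold changes of -0.074 ± 0.079, -0.11 ± 0.076 and -0.048 ± 0.074 (SE). Ppp3cc, another subunit gene, had -0.15 ± 0.071 (SE), the lowest of the calcineurin and NFAT list. Ppp3cc is named after its values were seen. Nfatc1, an NFAT factor that is itself induced by receptor signalling, stood at 297 ± 9.32 CPM under dimethyl succinate and 251 ± 34.2 CPM under vehicle (SD, n = 4 each), with groups that did not overlap. Its log2 fold change of 0.24 ± 0.089 (SE) had an adjusted p of 0.802 in edgeR's test, and was 0.15 without vehicle replicate 4 (adjusted p 0.268). Nfatc2 and Nfatc3 had 0.13 ± 0.10 and 0.095 ± 0.103, or 0.017 and -0.0022 without that library. Rcan1, a calcineurin inhibitor and target of NFAT, was at 19.0 ± 1.55 CPM under dimethyl succinate and 19.9 ± 4.30 CPM under vehicle (SD, n = 4 each), a log2 fold change of -0.067 ± 0.137 that turned to 0.084 without vehicle replicate 4.

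Among the other genes of membrane potential, Kcnab2, a beta subunit of Kv1 channels, stood at 0.045 ± 0.055 on the log2 fold change scale (SE), and Kcnk5, a leak-type potassium channel, 0.13 ± 0.096. Trpm7, a channel for magnesium and calcium joined to a kinase, had -0.085 ± 0.080. Magt1, a gene named for magnesium transport, had -0.14 ± 0.073, and P2rx7, a cation channel gated by ATP, 0.051 ± 0.109. Magt1 was at -0.072 and P2rx7 at -0.035 without vehicle replicate 4. Atp1b3, a beta subunit of the sodium pump, stood at 291 ± 14.1 CPM under dimethyl succinate and 340.4 ± 59.0 CPM under vehicle (SD, n = 4 each), and its log2 fold change of -0.23 ± 0.10 was -0.097 ± 0.049 without vehicle replicate 4, with an adjusted p of 0.802 and 0.606 in edgeR's test.

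**Figure D5:**
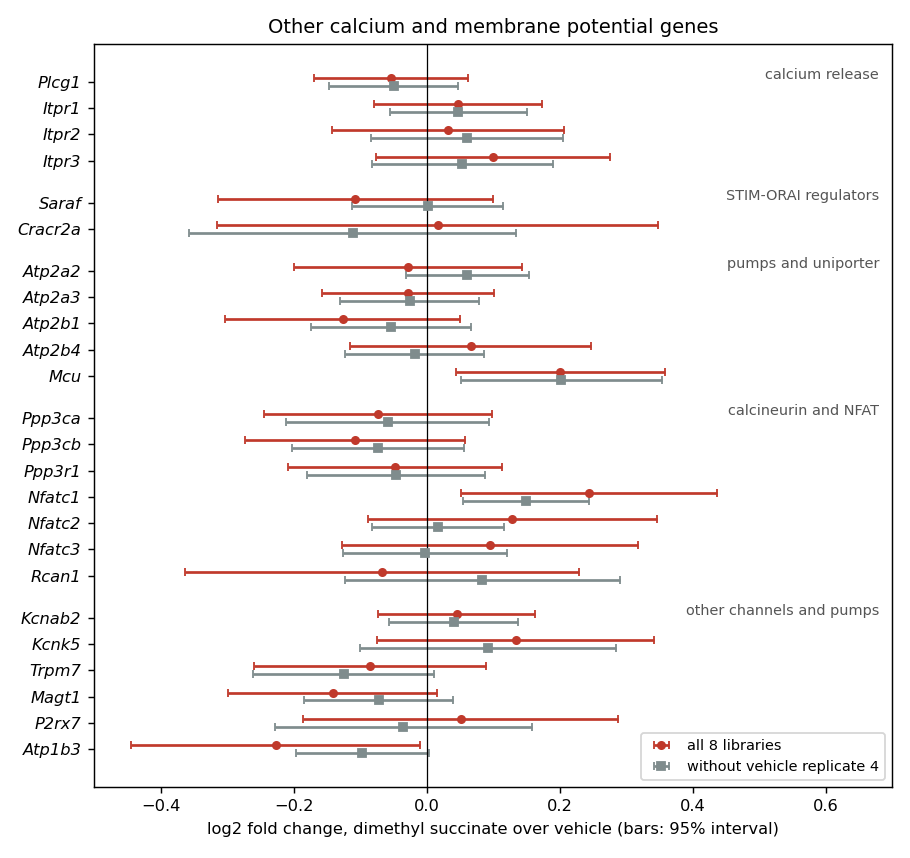
Log2 fold change of dimethyl succinate over vehicle with 95% intervals for 24 genes of calcium release, calcium clearance, calcineurin and NFAT, and membrane potential, from all 8 libraries (red circles) and without vehicle replicate 4 (grey squares). The intervals of Mcu and Nfatc1 lie above 0 in both, and that of Atp1b3 lies below 0 with all libraries only.

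State markers of T cells were read beside the channels. Il2ra, the activation-induced alpha chain of the interleukin-2 receptor, stood at 2106 ± 85.7 CPM under dimethyl succinate and 1959 ± 376 CPM under vehicle (SD, n = 4 each), and Cd44, another activation marker, at 131 ± 5.42 CPM with the ester and 115 ± 12.9 CPM with vehicle. Cd69, an early activation antigen, was at 389 ± 12.7 CPM under dimethyl succinate and 423 ± 3.87 CPM under vehicle with no overlap (log2 fold change -0.12 ± 0.056, adjusted p 0.802 in edgeR), and Mki67, a marker of dividing cells, at 126 ± 17.3 CPM with the ester and 118 ± 24.5 CPM with vehicle. The log2 fold changes of Il2ra, Cd44 and Mki67 were 0.10, 0.19 and 0.091, and without vehicle replicate 4 they were -0.027, 0.11 and -0.049. Vehicle replicate 4 held 1397 CPM of Il2ra, against 2104 to 2183 CPM in the other vehicle libraries. Il7r, Ccr7 and Tcf7, typical of naive T cells, gave log2 fold changes of 0.011 ± 0.112, -0.044 ± 0.082 and 0.21 ± 0.193 (SE). Without vehicle replicate 4 they were at -0.077, -0.058 and 0.015, and the value of Tcf7 rests on that library, with 246 CPM against 464 to 509.6 CPM in the other vehicle libraries. None of these markers reached an adjusted p of 0.05 in edgeR, and their part in the differences of Kcna3 and Orai1 was not tested.

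The genes whose log2 CPM followed each member most closely over the 8 libraries were found among 8915 genes of at least 10 CPM by Pearson's r, as a description that includes the difference between the groups. For Kcna3 they were Fbxo46 (0.985) and Nr4a1 (0.965), an early response nuclear receptor gene, with r of 0.985 and 0.962 over the 7 libraries without vehicle replicate 4. For Orai1 they were Notch1 (0.981) and Setd1b (0.977), or 0.960 and 0.962 over 7. Kcnn4 was nearest to Txn2 (0.970) and Git1 (0.968), Orai2 to Tmem104 (0.989) and Foxk2 (0.988), and Orai3 to Unc13d (0.979) and Dnajc27 (0.969). Stim1 was nearest to Plekhm2 (0.964) and Cbx6 (0.946), Stim2 to Trib1 (0.944) and Ephx1 (0.930), and Trpm4 to Txnrd2 (0.972) and D17Wsu92e (0.962). No gene was among the nearest of more than 1 member. The highest of 8915 correlations over 8 libraries is high by choice, so no value is read from its size.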

How the data were processed

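Messenger RNA of 4 dimethyl succinate and 4 vehicle libraries was sequenced in bulk. Per the labels' protocols RNA was extracted with TRIzol, and the submitters' processing notes name HISAT2 2.0.5. The sources used here do not give the counting tool, the annotation, the build or the use of strand. Per the file headers, the authors deposited raw counts and FPKM for each gene in each library. FPKM equalled the count per listed gene length and library constant within 2.08e-06%, so it scales with the count. The authors also deposited group means (named a signal here, as the headers give no unit), log2 fold changes, and p-values with adjusted p-values. Start or end of 99.2% of 54495 matched genes equalled GENCODE M21, so coordinates are read as GRCm38.

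Counts were tested with edgeR 4.0.16 in R 4.3.3: filterByExpr (13981 genes), TMM factors, quasi-likelihood F test with robust dispersions, 4 against 4, no covariate, two-sided, Benjamini-Hochberg over all tested genes at 0.05. SE came from the F statistic. CPM used TMM-scaled totals, and log2 CPM a prior count of 2. The fit was checked on simulated counts in which the planted changes were 2-fold and no library stood apart. That is a larger change than those of Kcna3 and Orai1, so the check does not cover differences of their size. Alternatives were DESeq2 1.42.0, limma 3.58.1 (voom, and trend on log2 FPKM with a pseudocount of 1 or 0.1), other scalings and filters, a replicate block and each library left out.

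The 8 members, the lists and the 25 pathway genes to be named whatever their values were chosen with earlier results of these data known. Of these genes and the marker lists, 2 genes are not reported here. The 2 genes most like each member were named by Pearson's r. Genes outside these rules are said to be so. Since no label says whether replicates are separate mice or cultures, p-values cover only the spread among these libraries, possibly technical. None was counted as a copy: within a group, any pair had a chi-square per gene of at least 2.12.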

Additional observations from a re-analysis of the deposited data

Results flagged for a closer look

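Of 66 groups of 4 libraries checked over the 8 genes and the 25 pathway genes, 7 had a library far from the other 3, where chance flags about 1 in 20 groups (5%). Dimethyl succinate replicate 1 stood above the others of its group for Orai2, at 82.72 CPM against 77.51 to 78.17. It stood below them for Ppp3r1, at 107.9 CPM against at least 127.6. Vehicle replicate 4 accounts for the other 5. It was the highest vehicle library for Atp2a2, at 501.4 CPM against 397.3 to 403.6, and for Atp1b3, at 428.0 CPM against 302.6 to 321.1. It was the lowest for Atp2b4, at 101.2 CPM against 128.5 to 133.2, for Nfatc1, at 199.9 CPM against 265.6 to 272.2, and for Nfatc2, at 105.6 CPM against 150.1 to 150.7.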

How the results depend on the processing

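The count of genes called, 0 of 13981 in edgeR with 805 at an unadjusted p below 0.05, was 6 with no low-count filter and 0 to 28 with 1 library left out, the 28 arising without vehicle replicate 4. It was 1 with the replicate number of the titles as a block, where 987 genes had an unadjusted p below 0.05. The correlation of same-numbered deviations across 8915 genes was -0.0079, 0.046, 0.13 and 0.26, and that of different-numbered ones ran from -0.32 to 0.23. The highest, 0.26, was for number 4, which includes vehicle replicate 4. With so few libraries, these values do not decide whether the numbers pair them. DESeq2 and limma called 0. The 3 pathway lists had 0 calls in all 18 alternatives. The median over the 8 genes, 0.096, ran from 0.059 to 0.13, and the log2 fold change of each of the 8 kept its sign in all 18: Kcna3 from 0.35 to 0.46 (adjusted p 0.0533 to 0.936), Orai1 from 0.27 to 0.38 (0.0461 to 0.936). The order of levels held in all 9 alternatives, with 3 or 4 separate neighbouring pairs. Leaving out a library could not show how the order depends on the listed gene lengths. With 1 library left out, 9 pathway genes changed sign: Itpr2 (-0.010 to 0.089), Saraf (-0.17 to 0.0016), Cracr2a (-0.11 to 0.12), Atp2a2 (-0.058 to 0.061), Atp2b4 (-0.018 to 0.11), Ppp3r1 (-0.084 to 0.014), Nfatc3 (-0.0022 to 0.16), Rcan1 (-0.17 to 0.084) and P2rx7 (-0.035 to 0.12). The cause was not tested. Depth limits Trpm4 and Orai3 most, with 169 to 262 counts per library.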
